A study of Homo sapiens with 6 samples.

Results

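Double-stranded RNA response genes were examined in UWB1.289 cells treated with the PARP inhibitor Olaparib or with DMSO. UWB1.289 is a human line derived from an ovarian carcinoma that lacks functional BRCA1. The 6 genes were taken from a list of names, with no threshold on their values. They encode the oligoadenylate synthetase family (OAS1, OAS2, OAS3 and OASL), the kinase PKR (EIF2AK2) and the RNA editing enzyme ADAR. Their symbols were mapped to Ensembl identifiers, and they made up 6 of the 63677 genes in the count table and 6 of the 21729 genes with more than 10 counts in total. The study used 3 samples with 4 µM Olaparib and 3 samples with DMSO as vehicle, all collected after 24 h, and 3 dishes were prepared per condition. The sample labels and the study's methods give 4 µM, whereas the design text of the series gives 10 µM. The genotype entry of all 6 samples reads WT, while the study describes the line as BRCA1-deficient, so both conditions share this background. All samples come from this single cell line, and poly(A) RNA was measured with a stranded library kit.

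Cells recognise long double-stranded RNA as a sign of viral infection or of their own unprocessed transcripts. OAS1, OAS2 and OAS3 bind such RNA and make short oligoadenylates (2-5A) as a messenger of the antiviral response, whereas OASL has lost this activity. PKR binds the same kind of RNA and phosphorylates the translation factor eIF2 alpha. ADAR converts adenosine to inosine within double-stranded RNA, which lowers recognition by these sensors. The genes are known to respond to interferon through a transcription factor complex that includes STAT2 and IRF9.

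Olaparib samples held more OAS2, OASL, OAS1 and OAS3 RNA than DMSO samples, by 1.92-fold, 1.80-fold, 1.54-fold and 1.44-fold. EIF2AK2 rose by 11.9%, and ADAR differed by 5.85%, which did not pass the test. With edgeR's quasi-likelihood test and Benjamini-Hochberg adjustment over all 21729 genes, 5 of the 6 genes were higher at an adjusted p under 0.05 and 0 were lower. Across all genes tested, 2.15% were higher and 1.21% lower by this rule, 3.36% in all. When a fold change of 1.2 was also required, 4 of the 6 genes remained (OAS1, OAS2, OAS3 and OASL), against 0.723% of all genes higher and 0.483% lower. The median log2 fold change was 0.57 over the 6 genes and -0.0042 over all genes tested. With robust estimation of the dispersion in edgeR, 2 of the 6 genes passed (OASL and EIF2AK2), and the values for OAS1, OAS2 and OAS3 under that setting stand beside each gene.

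The bases around the start sites of the genes are shown because 3 of the 4 genes with a RefSeq promoter window shared a 9-base sequence there, the longest run of letters common to the windows of at least 3 of these genes. RefSeq windows on GRCh38.p14, from 250 bases before to 50 bases after a start, were given for OAS1 (1 window), OAS3 (1 window), EIF2AK2 (1 window) and ADAR (3 windows). OAS2 and OASL had no window in the table used. The sequences run 5′ to 3′ on the gene's strand from 60 bases before the start, and capitals mark AAACGAAAC. The 4 windows were OAS1 at chr12:112906902-112906971 (plus strand), OAS3 at chr12:112938414-112938483 (plus strand), EIF2AK2 at chr2:37156971-37157040 (minus strand) and the first ADAR window at chr1:154627988-154628057 (minus strand).
OAS1: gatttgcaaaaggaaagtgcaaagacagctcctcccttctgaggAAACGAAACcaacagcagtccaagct
OAS3: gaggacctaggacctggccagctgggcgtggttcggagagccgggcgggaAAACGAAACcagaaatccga
EIF2AK2: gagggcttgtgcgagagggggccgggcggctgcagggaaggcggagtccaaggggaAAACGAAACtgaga
ADAR: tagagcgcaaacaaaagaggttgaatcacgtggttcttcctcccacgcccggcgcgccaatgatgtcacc

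AAACGAAAC began 16 bases before the start of OAS1, 10 bases before that of OAS3 and 4 bases before that of EIF2AK2. OAS3 held it again 147 bases before the start, within the stretch at chr12:112938317-112938346 (plus strand).
OAS3 upstream: tgctagaaagAAACGAAACtgaaagcaggg

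The 3 ADAR windows did not hold these letters on either strand, and which ADAR transcript each window belongs to was not examined. Of all 35116 RefSeq promoter windows, 39 (0.111%) held AAACGAAAC on either strand. GAAANGAAA, a repeat of GAAA around 1 free base, was found in 3.12% of windows. It overlapped the 9-base sequence in OAS1 and, in OAS3, the copy 147 bases before the start. The OAS3 copy 10 bases before the start and the EIF2AK2 copy had no such match. In both, the letters read GAAAACGAAAC, in which GAAA is repeated around AC. The share of windows with this wider spacing was not counted. TTCNNNGAA, a common way to write the STAT dimer site, was found in 7.66% of windows and, among the genes with a window, in OAS1 only, 168 bases before its start. AAACGAAAC was taken from these windows and GAAANGAAA was chosen after the sequences had been read, and a match in letters says nothing on binding.

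Of the 38 genes with AAACGAAAC in a window, 25 were tested, and 22 of these were not among the 6 genes described here. In Olaparib samples 6 of these 22 genes (27.3%) were higher and 0 lower, beside 2.58% higher and 1.35% lower among 13223 genes with any window. The 6 genes, named after their values were seen, were MX1, RSAD2, XAF1, HERC5, PLSCR1 and PARP12, with log2 fold changes of 1.05, 0.87, 0.85, 0.40, 0.26 and 0.17. The median log2 fold change over the 22 genes was 0.06. Among 467 tested genes with GAAANGAAA, again without the genes described here, 24 (5.14%) were higher and 7 lower. Among 1139 with TTCNNNGAA the shares were 3.34% and 1.49%. These shares are descriptions, and no test was run on them.

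Library totals lay between 35360458 and 39640775 counts, and TMM scaling factors between 0.995 and 1.01. Normalized counts are counts divided by each library's effective size and multiplied by the mean effective size, so they are comparable between samples but not between genes of different length. Of 7 markers of ovarian carcinoma and Mullerian epithelium, 6 were detected, with summed levels of 462045 to 491434 normalized counts, while WT1 had 0 to 2 counts in each sample. Markers of leukocytes (4 genes) summed to 103 to 143 normalized counts and those of fibroblasts (2 genes) to 236 to 338, and both sums overlapped between conditions. Of these markers, CD14 had 44.5, 56.4 and 48.7 normalized counts with Olaparib and 39.7, 41.2 and 31.3 with DMSO, so its groups were apart, with a log2 fold change of 0.42 (SE 0.18) that did not pass the test (edgeR adjusted p = 0.260). Of the 2 endothelial markers PECAM1 had 0 counts in every sample, and VWF had 39.7 to 43.6 normalized counts with DMSO and 63.8 to 69.7 with Olaparib. VWF passed the test and the fold threshold, with a log2 fold change of 0.68 (SE 0.16, edgeR adjusted p = 0.0106), a larger fold change than that of OAS1 or OAS3. Of the ovarian markers, PAX8 also passed, with a log2 fold change of 0.10 (SE 0.029, edgeR adjusted p = 0.0400). The part of cells that express VWF or CD14 in the results was not tested. In bulk RNA, a larger share of cells with a transcript and more RNA per cell cannot be told apart.

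The synthetases OAS1, OAS3 and OAS2 lie next to each other on the plus strand of chromosome 12. From the annotated end of a gene to the start of the next, the distances were 4832 and 1935 bases. OAS2 (ENSG00000111335, chr12:112978395-113011723) had the largest fold change of the 6 genes. Its normalized counts were 712, 1067 and 1247 in Olaparib replicates 1, 2 and 3, and 602, 438 and 537 in the DMSO replicates. All Olaparib samples lay above all DMSO samples, but Olaparib replicate 1 was closer to the highest DMSO sample than to the other Olaparib samples. The means were 1008 ± 272 (SD, n = 3) and 526 ± 82.5 (SD, n = 3), a log2 fold change of 0.94 (SE 0.11, edgeR adjusted p = 4.5e-07). This SE rests on a dispersion moderated across genes. With robust dispersion, which is also moderated across genes, the edgeR adjusted p was 0.230 (SE 0.28).

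OAS1 (ENSG00000089127, chr12:112905856-112933219), the smallest of the synthetases, carries a single synthetase unit. Its normalized counts were 777, 1099 and 1190 with Olaparib and 701, 621 and 666 with DMSO. The groups did not overlap, and Olaparib replicate 1 was again the lowest of the treated samples, only slightly above DMSO replicate 1. The means of 1022 ± 217 and 663 ± 40.1 (SD, n = 3 each) gave a log2 fold change of 0.63 (SE 0.083, edgeR adjusted p = 6.0e-06). Under robust dispersion the SE rose to 0.19 and the adjusted p to 0.255. On the opposite strand, an unnamed gene shares 1.71% of the OAS1 exonic bases, and it had at most 4 counts in any sample.

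OAS3 (ENSG00000111331, chr12:112938051-112976460), the largest enzyme of the family and one with high affinity for long double-stranded RNA, had the most counts of the 4 OAS genes. Normalized counts of 3745, 4798 and 4821 with Olaparib stood against 3121, 2977 and 3211 with DMSO. Here too the groups were apart, and replicates 2 and 3 of the Olaparib group lay close together while replicate 1 was lower. The means were 4455 ± 615 and 3103 ± 118 (SD, n = 3 each), with a log2 fold change of 0.52 (SE 0.055, edgeR adjusted p = 1.1e-07). With robust dispersion the SE was 0.12 and the adjusted p 0.152.

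OASL (ENSG00000135114, chr12:121017763-121039246, minus strand) lies elsewhere on chromosome 12 and encodes a protein that acts on RIG-I signaling instead of making 2-5A. It had the fewest counts, with normalized counts of 74.9, 96.4 and 117 with Olaparib and 50.2, 53.9 and 55.9 with DMSO. Every Olaparib sample exceeded every DMSO sample, and the order of Olaparib replicates was the same as for OAS1, OAS2 and OAS3. The means were 96.2 ± 21.2 and 53.4 ± 2.92 (SD, n = 3 each), giving a log2 fold change of 0.85 (SE 0.16, edgeR adjusted p = 8.8e-04). Counting error alone would give a coefficient of variation of 10.2% with Olaparib and 13.6% with DMSO at this depth, so OASL was measured less precisely than the other genes. Robust dispersion left its call in place (adjusted p = 1.3e-04).

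EIF2AK2 (ENSG00000055332, chr2:37099210-37157522, minus strand), which encodes PKR, had normalized counts of 5618, 5834 and 5864 with Olaparib and 5400, 4932 and 5144 with DMSO. The groups did not overlap, with a narrow gap between Olaparib replicate 1 and DMSO replicate 1. The means of 5772 ± 134 and 5159 ± 234 (SD, n = 3 each) gave a log2 fold change of 0.16 (SE 0.034, edgeR adjusted p = 0.00386), under the fold threshold of 1.2. Without DMSO replicate 2, the lowest sample, the log2 fold change was 0.13 and the adjusted p 0.0905. Exons of GPATCH11 and a pseudogene on the opposite strand cover 3.95% of its exonic bases.

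ADAR (ENSG00000160710, chr1:154581695-154628013, minus strand) produces a long, interferon-inducible and a shorter, constitutive protein, which counts per gene do not separate. Normalized counts were 12080, 12929 and 12612 with Olaparib and 12231, 11706 and 11607 with DMSO. DMSO replicate 1 lay above Olaparib replicate 1, so the groups overlapped. The means were 12540 ± 429 and 11848 ± 335 (SD, n = 3 each), with a log2 fold change of 0.08 (SE 0.030) and an edgeR adjusted p of 0.146. Without Olaparib replicate 1, the adjusted p was 0.0274 and the log2 fold change 0.11.

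**Figure D1:**
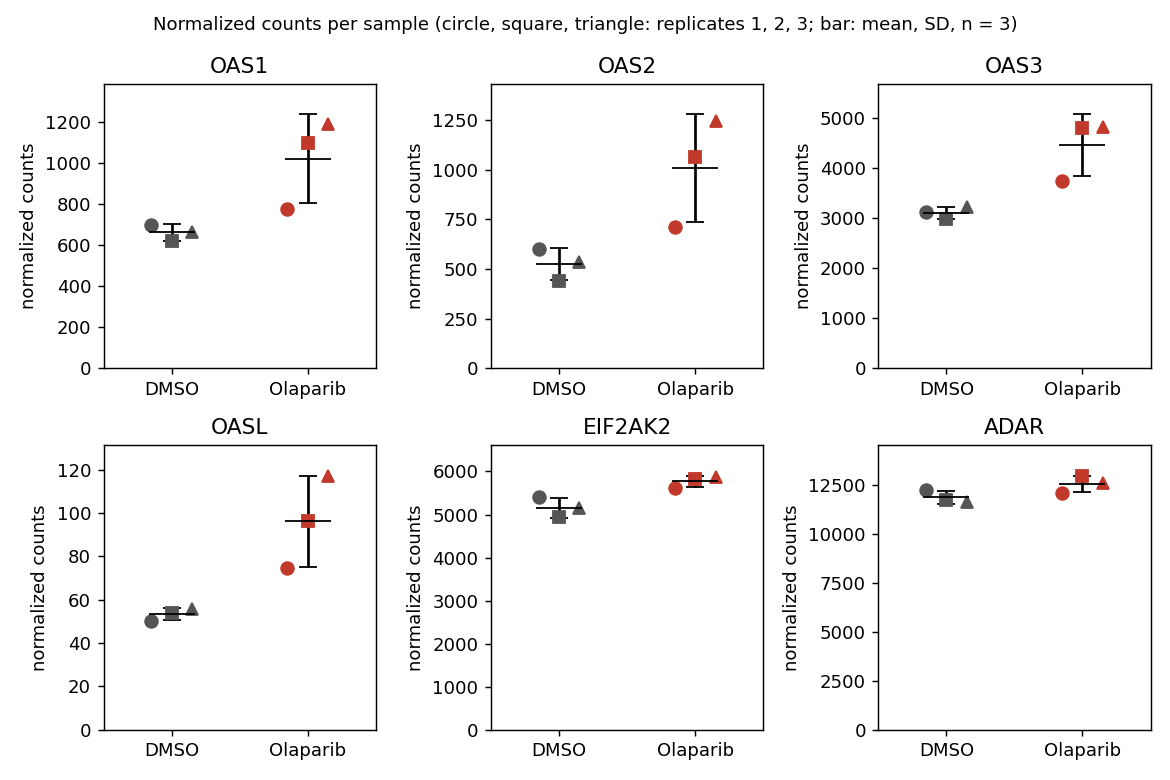
Normalized counts (linear axes from 0) of the 6 genes in each DMSO sample (grey) and Olaparib sample (red), with circles, squares and triangles for replicates 1, 2 and 3 and bars for the mean and SD of 3 samples. OAS1, OAS2, OAS3, OASL and EIF2AK2 show Olaparib samples above all DMSO samples, Olaparib replicate 1 is the lowest treated sample for every gene, and ADAR overlaps between conditions.

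Groups were apart, with all Olaparib above all DMSO samples, in 5 of the 6 genes and in 10.0% of all genes tested, and groups were apart in either direction in 19.3% of all genes. An exact permutation test (two-sided) of 3 samples against 3 gave p = 0.1 for each of these 5 genes, the smallest value this design allows, and p = 0.2 for ADAR. DESeq2, which the study's methods name, was run here on the deposited counts and passed 4 of the 6 genes. Its adjusted p was 0.0320 for OAS1, 0.0169 for OAS2, 7.7e-04 for OAS3 and 0.00119 for EIF2AK2. These calls come from this run and were not set against the study's own list. DESeq2 gave no adjusted p for OASL because of its filter on low means, and 0.158 for ADAR. For OAS1, OAS2 and OAS3 the SE was 0.19, 0.27 and 0.12 in DESeq2, against 0.083, 0.11 and 0.055 in edgeR. In limma voom, the adjusted p was 9.2e-05 for OAS1, 1.4e-05 for OAS2, 1.1e-06 for OAS3, 0.00322 for OASL, 0.00370 for EIF2AK2 and 0.133 for ADAR.

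**Figure D2:**
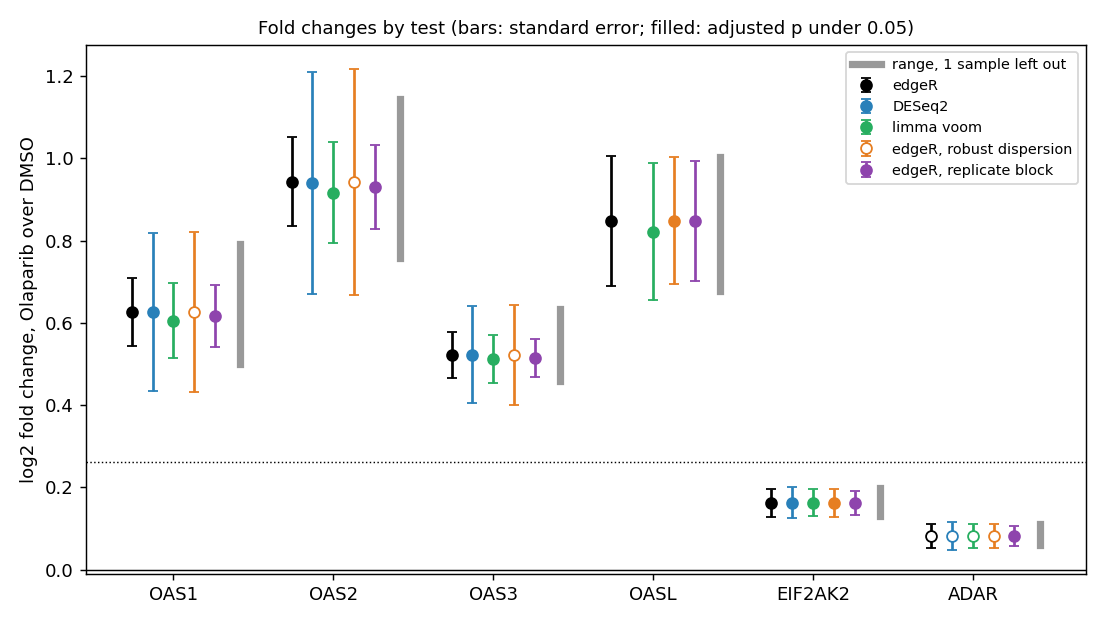
Log2 fold changes of Olaparib over DMSO for the 6 genes by 5 tests, with bars for the standard error, filled symbols for an adjusted p under 0.05 and grey bars for the range when 1 sample was left out. The dotted line marks a fold change of 1.2. The fold changes hardly move between tests, whereas for OAS1, OAS2 and OAS3 the standard errors are larger in DESeq2 and with robust dispersion, and the symbols are open with robust dispersion.

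Within the Olaparib group, replicates of the OAS genes varied more than those of PKR and ADAR. There the coefficient of variation lay between 13.8% (OAS3) and 22.0% (OASL) for OAS1, OAS3 and OASL and was higher still for OAS2, against 2.32% for EIF2AK2 and 3.42% for ADAR. The median over the 11997 genes that averaged 100 counts or more was 3.58%. OASL averaged under 100 counts and was not ranked among them. OAS2 varied more than 99.9% of these genes, OAS1 more than 99.7% and OAS3 more than 98.5%, while EIF2AK2 varied more than 26.6% and ADAR more than 47.1%. In the DMSO group, the values were 15.7% for OAS2, 6.05% for OAS1, 5.46% for OASL, 4.54% for EIF2AK2, 3.80% for OAS3 and 2.83% for ADAR, beside a median of 3.20% over the same genes, so EIF2AK2 lay within the range of the OAS genes there. The OAS genes shared the order of samples, as Olaparib replicate 1 was lowest and replicate 3 highest in all 4 of them. DMSO replicate 2 was the lowest DMSO sample for OAS1, OAS2, OAS3 and EIF2AK2. The cause was not tested.

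Levels of the genes were compared per kilobase, as normalized counts divided by the length of the Ensembl canonical transcript. With DMSO, ADAR had the highest level at 1792 ± 50.7 normalized counts per kb (SD, n = 3), followed by EIF2AK2 at 517 ± 23.5, OAS3 at 470 ± 17.9, OAS1 at 406 ± 24.6, OAS2 at 114 ± 17.9 and OASL at 16.3 ± 0.892. The sample ranges of neighbours in this order did not overlap. With Olaparib, ADAR stood at 1897 ± 64.9, OAS3 at 675 ± 93.2, OAS1 at 627 ± 133, EIF2AK2 at 579 ± 13.4, OAS2 at 218 ± 58.9 and OASL at 29.4 ± 6.48 normalized counts per kb. OAS3, OAS1 and EIF2AK2 overlapped in their sample ranges with Olaparib (567 to 731, 477 to 730 and 563 to 588), so their order was not resolved. As a difference in level, Olaparib added 220 normalized counts per kb to OAS1, 205 to OAS3, 105 to ADAR, 104 to OAS2, 61.5 to EIF2AK2 and 13.1 to OASL. The levels depend on the length used. Over the union of all annotated exons, a choice made after the data had been seen, DMSO levels per kb were 968 for ADAR, 467 for EIF2AK2, 172 for OAS3, 50.9 for OAS1, 46.8 for OAS2 and 8.44 for OASL, and the sample ranges of OAS1 and OAS2 overlapped in both conditions. With Olaparib, OAS2 averaged 89.8 and OAS1 78.5 on that scale, an order not resolved, while EIF2AK2 (523) stood above OAS3 (247) without overlap. Olaparib there added 74.9 per kb to OAS3, 56.5 to ADAR, 55.6 to EIF2AK2, 43.0 to OAS2, 27.6 to OAS1 and 6.78 to OASL. The order of these differences was not the one found with the canonical transcript.

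Ratios between 2 genes within a library do not depend on library scaling. The log2 ratio of each gene to ADAR was higher with Olaparib by 0.83 for OAS2, 0.74 for OASL, 0.52 for OAS1, 0.43 for OAS3 and 0.08 for EIF2AK2. For OAS2 the ratio to ADAR was -3.67 ± 0.379 with Olaparib and -4.50 ± 0.207 with DMSO (SD, n = 3 each). For EIF2AK2 it was -1.12 ± 0.025 and -1.20 ± 0.041. The groups did not overlap for any of the 5 ratios to ADAR, and each exact permutation test (two-sided) gave p = 0.1, adjusted to 0.125 over the 15 pairs of genes. Relative to EIF2AK2, the log2 ratio was higher by 0.75 for OAS2, 0.66 for OASL, 0.44 for OAS1 and 0.35 for OAS3, again without overlap and with exact p = 0.1.

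Within the OAS family, OAS1 was lower relative to OAS2 by a log2 difference of -0.31 and relative to OASL by -0.22, and OAS3 was lower relative to OASL by -0.31, each with groups apart and exact permutation p = 0.1. The other 3 ratios overlapped between conditions, with differences of 0.40 for OAS2 over OAS3 (exact p = 0.2), 0.09 for OAS1 over OAS3 (exact p = 0.4) and 0.09 for OAS2 over OASL (exact p = 0.7). The 15 ratios reuse the same 6 genes and are not independent of each other, and none could pass the adjustment at this sample number.

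**Figure D3:**
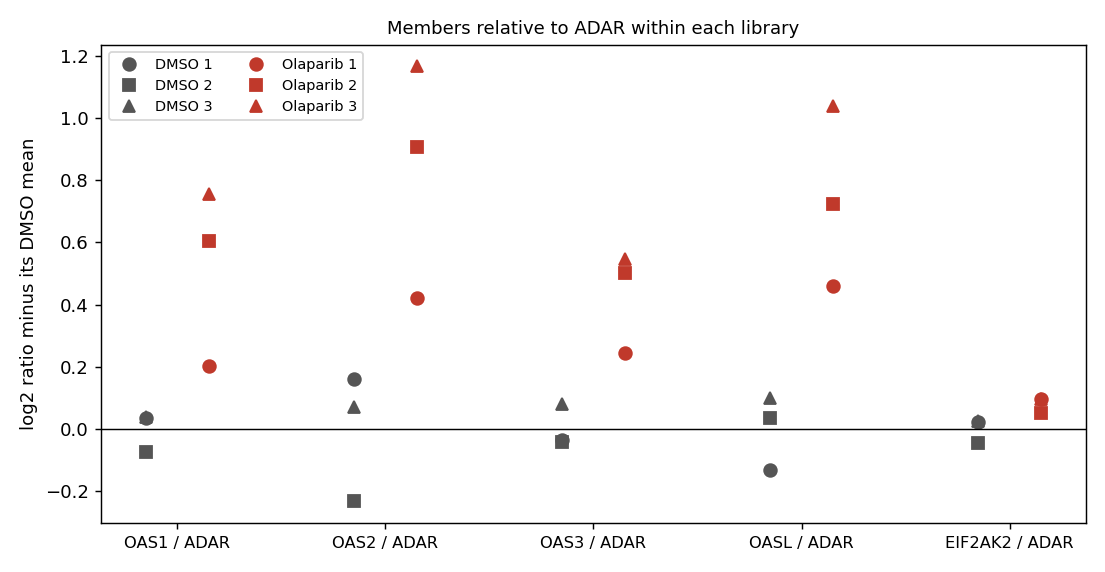
Log2 ratio of each gene to ADAR within each library, minus the mean of the DMSO samples, for DMSO (grey) and Olaparib (red), with circles, squares and triangles for replicates 1, 2 and 3. Olaparib samples lie above DMSO samples in all 5 ratios, with mean differences of 0.83 for OAS2, 0.74 for OASL, 0.52 for OAS1, 0.43 for OAS3 and 0.08 for EIF2AK2, and Olaparib replicate 1 is nearest to DMSO for the 4 OAS genes.

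Other genes of the double-stranded RNA pathways were followed in a list of 44, all of which were tested. Of these, 2 were higher with Olaparib, 0 were lower and 42 did not pass, beside 2.15% higher and 1.21% lower over all genes. None of the 44 passed the fold threshold of 1.2 as well. The median log2 fold change over the list was 0.0097, compared with 0.57 for the 6 genes. DESeq2 also passed 2 of the list, and at an unadjusted p under 0.05 edgeR gave 4 higher and 3 lower. Leaving out Olaparib replicate 3 or DMSO replicate 2 reduced the 2 higher genes to 0, and leaving out Olaparib replicate 2 or DMSO replicate 1 reduced them to 1.

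The 2 higher genes came from different parts of the list. IFIH1, the cytoplasmic sensor MDA5 for long double-stranded RNA, was at 1503 ± 84.7 normalized counts with Olaparib and 1286 ± 65.8 with DMSO (SD, n = 3 each), giving a log2 fold change of 0.23 (SE 0.048, edgeR adjusted p = 0.00377). ATF4, the transcription factor whose translation increases when eIF2 alpha is phosphorylated, was at 10982 ± 279 and 10112 ± 261, a log2 fold change of 0.12 (SE 0.030, edgeR adjusted p = 0.0159). IFIH1 did not pass without Olaparib replicate 3 (adjusted p = 0.0963) or without DMSO replicate 2 (0.0570). ATF4 did not pass in 4 of the 6 fits with 1 sample left out, without Olaparib replicate 2 or 3 or DMSO replicate 1 or 2, with adjusted p up to 0.123.

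The direct partners of the 6 genes gave smaller or unresolved differences. None of the 3 genes listed for 2-5A signaling passed the test. EIF2S1, which encodes eIF2 alpha, the substrate of PKR, was at 5098 ± 150 and 5061 ± 79.9 (SD, n = 3 each; log2 fold change 0.01, edgeR adjusted p = 0.934). None of the 8 eIF2 and eIF2B subunits, the 3 other eIF2 alpha kinases or the 3 PKR regulators passed.

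Among the other adenosine deaminases, 0 of 5 passed. ADARB1, the second active RNA editing enzyme of this kind, was at 744 ± 26.1 and 721 ± 16.9 normalized counts (SD, n = 3 each), with a log2 fold change of 0.05 and an edgeR adjusted p of 0.746. DHX58 (LGP2), a regulator of RIG-I and MDA5, was at 118 ± 18.8 and 102 ± 8.01, with a log2 fold change of 0.21 (SE 0.13, edgeR adjusted p = 0.460). RIGI had 2 or 3 counts in every sample, at or under the floor of 3 counts, so no fold change is given, and 43.2% of its exonic bases are shared with another annotated gene. None of the 10 double-stranded RNA binding or processing genes passed, and neither did STAT2 or IRF9, with log2 fold changes of 0.08 and -0.09 (edgeR adjusted p = 0.399 and 0.781). On the same strand, 23.9% of the IRF9 exonic bases are shared with other annotated genes. A missed threshold in these genes does not show that their RNA was equal between conditions.

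**Figure D4:**
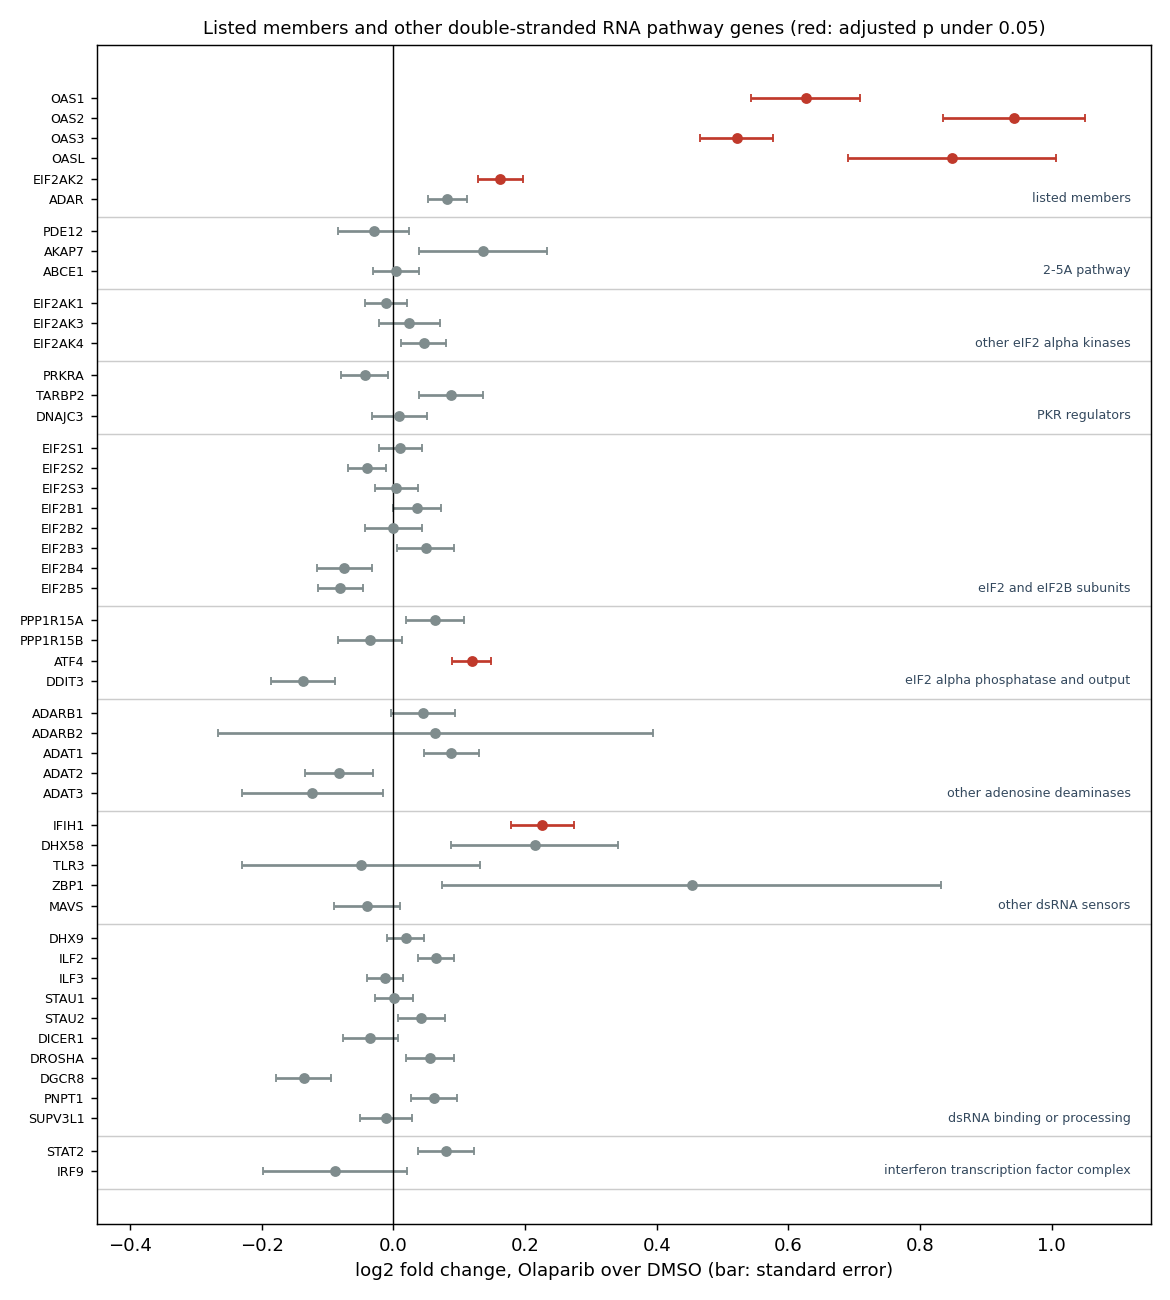
Log2 fold changes of Olaparib over DMSO with standard errors for the 6 genes (top) and 43 of the 44 other pathway genes by role, with RIGI left out because it was at the floor, and red for an adjusted p under 0.05. OAS1, OAS2, OAS3 and OASL lie between 0.52 and 0.94, and IFIH1 (0.23) and ATF4 (0.12) are the red genes among the other pathway genes.

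Genes that neighbour the 6 genes on the chromosome were examined next, taking the nearest tested protein-coding gene on each side. Of those reported here outside the 6 genes, none passed the test. Below the OAS1-OAS3-OAS2 cluster, PTPN11 lies 395938 bases away and was at 10296 ± 358 normalized counts with Olaparib and 9755 ± 282 with DMSO (SD, n = 3 each), giving a log2 fold change of 0.08 (edgeR adjusted p = 0.188). Above the cluster, DTX1 averaged under 3 normalized counts in both groups. Next to OASL, P2RX7 was at 10.5 normalized counts with Olaparib and 12.5 with DMSO. GPATCH11, which overlaps the end of EIF2AK2 on the opposite strand, was at 1148 ± 82.8 and 1176 ± 49.3 (log2 fold change -0.03, edgeR adjusted p = 0.820). CEBPZOS on the other side had a log2 fold change of -0.08 (edgeR adjusted p = 0.446). CHRNB2 and KCNN3 beside ADAR averaged 10.1 and 5.03 normalized counts with Olaparib and 10.3 and 5.00 with DMSO.

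The genes whose pattern over the 6 samples was most like the mean log2 level of the 4 OAS genes were ranked by Pearson's r among 11992 genes averaging 100 counts or more. Of the 8 with the highest r, 7 are reported here, namely SAMHD1 (0.999), IFIT1 (0.997), FGFR1 (0.994), EMC8 (0.994), CIAPIN1 (0.991), TRANK1 (0.991) and RPS3 (0.991). These values describe 6 samples in 2 conditions that share treatment and library depth, and no test was run on them. IFIT1, an interferon-induced RNA-binding protein, had a log2 fold change of 1.04 (SE 0.13), and SAMHD1, a dNTP hydrolase, 0.24 (SE 0.047). EMC8, CIAPIN1 and RPS3 had log2 fold changes of only 0.07, 0.07 and 0.08, and did not pass the test. FGFR1 and TRANK1, with log2 fold changes of 0.20 and 0.28, did not pass either (edgeR adjusted p = 0.116 and 0.0690).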

How the data were processed

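Per the paper's methods, the authors trimmed adapters with Trimmomatic, mapped reads to GRCh38 (Ensembl release 96) with STAR, marked duplicates by Picard and counted reads per gene in featureCounts; duplicate removal and the strand setting are not given in the sources used here. The authors deposited raw counts as whole numbers for each gene. Genes with more than 10 counts in total were scaled by TMM and tested with edgeR 4.0.16 (glmQLFit, glmQLFTest; R 4.3.3), with Benjamini-Hochberg adjustment. The SE given with edgeR was derived from the log2 fold change and the quasi-F statistic. That statistic uses dispersions moderated across genes, so the SE does not measure the spread of a gene's own replicates alone. Alternatives were DESeq2 1.42.0, limma 3.58.1 voom, other scalings, filters and dispersion, a replicate block and leaving out each sample. Exact permutation tests used SciPy 1.17.1, and log2 ratios a pseudocount of 0.5. Coordinates and neighbours came from GENCODE release 44 on GRCh38, and promoter sequences from RefSeq (GRCh38.p14). The test was also run on simulated counts in which all genes shared the same dispersion. That run did not cover genes whose replicates varied as much as those of the OAS genes.

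The 6 genes, the gene lists and the tests were chosen with earlier results of these data known. Named genes were the 6 genes, list genes that passed, ADARB1, EIF2S1, DHX58, IFIH1, RIGI and ATF4, the neighbouring genes and the 8 genes of most similar pattern, of which a few are not reported here. The floor of 3 counts covers counting error only.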

Additional observations from a re-analysis of the deposited data

How the results depend on the processing

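The fold changes of the 4 OAS genes kept their direction under all alternatives run. With robust dispersion the adjusted p of OAS1 (0.63), OAS2 (0.94) and OAS3 (0.52) rose to 0.255, 0.230 and 0.152, so 2 of the 6 genes passed and 1 with the fold threshold; at a log2 threshold of 1.5, 0 passed. EIF2AK2 ranged from 0.13 to 0.20 and ADAR from 0.060 to 0.11 when 1 sample was left out, and these fits passed 4 to 6 genes. Samples of the same replicate number had correlations of deviations of -0.079, 0.105 and -0.104, and only those with number 2 were closest to their own number. The highest correlation, 0.226, was between Olaparib replicate 3 and DMSO replicate 1. Whether the replicate numbers pair the samples was not resolved. With a replicate block ADAR passed (0.082, edgeR adjusted p = 0.0476) and calls over all genes rose from 730 to 1322. Calls with the fold threshold fell from 262 to 141 in DESeq2, and all calls to 398 without DMSO replicate 2. Among the other pathway genes, 0 to 2 were higher with 1 sample left out, and 1 was lower with upper-quartile scaling, robust dispersion or the block (DGCR8, named after its values were seen, adjusted p = 0.0484, 0.0428 and 0.0244). Small values changed sign: OAS2 over OASL (-0.043 to 0.24 with 1 sample left out), EIF2S1 (-0.012 to 0.025) and GPATCH11 (-0.068 to 0.024). PTPN11 passed with the block (adjusted p = 0.0429). The cause of these differences was not tested. With 3 samples a group, depth limits chiefly OASL and genes at a few counts.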
